A study of Homo sapiens with 21 samples.

Results

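BFTC909 (BFTC-909 in the sample labels) is a human line of cancer cells that came from the renal pelvis, the funnel that carries urine from the kidney to the ureter. Its transcriptome after 18 h at 1% O2 (hypoxia) was set against that after 18 h at 18% O2 (normoxia), to show which genes respond to low oxygen in these cells. The cells of both groups had received a scrambled control siRNA (Scr-si), had no other genotype in the labels, and gave 2 libraries per group, 4 of the 21 RNA-seq libraries in the tables used. The same table holds another group of 2 libraries, METTL4-si cells at 1% O2 for 18 h, in which the DNA methyltransferase METTL4 was knocked down, and these libraries were used only to help estimate the spread between replicates. All 14869 genes, of 17232 in the table, with a value of 1 or more in at least 2 of the 6 libraries are described, and 555 of them passed only through a METTL4-si library. A value is a CPM (a read count scaled to library size) normalised by the TMM method, so it is a share of the library, and fewer cells of a type cannot be told apart from less RNA per cell.

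Cells respond to low oxygen chiefly through the hypoxia-inducible factors (HIFs), pairs of an oxygen-labile alpha subunit such as HIF1A or EPAS1 with ARNT. When oxygen is present, the EGLN prolyl hydroxylases mark the alpha subunit for VHL-dependent destruction, and when oxygen is short the pair binds the DNA core ACGTG or GCGTG and activates genes of glucose uptake, glycolysis, pH control, blood vessel growth and matrix modification. Low oxygen also slows the energy-costly making of ribosomes and proteins through mTOR and the integrated stress response.

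The 4 libraries held 21.3 to 24.1 M reads on genes. The labels do not say whether the libraries of a group came from separate cultures. The p-values thus measure only the spread between replicate libraries, which may be technical, and this spread was taken from all 6 libraries, METTL4-si included. The replicates of a group differed by a median of 0.063 on the log2 scale in normoxia, 0.084 in hypoxia and 0.188 in METTL4-si. Between the group means of hypoxia and normoxia the median absolute difference was 0.305. METTL4-si replicate 2 stood apart from its partner: the epithelial keratin KRT8 had a value of 715 in it and 5.02 in METTL4-si replicate 1. Without it the counts of called genes were 3052 higher and 2960 lower, without METTL4-si replicate 1 they were 3051 and 2963, and with both they were 2667 and 2715. All 5382 genes called with both were called also in a fit to the 4 Scr-si libraries alone.

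The labelled tissue was checked against its markers. Of 21 urothelial markers, 13 had no row in the table, among them the uroplakins UPK1A, UPK1B, UPK2 and UPK3A and the keratins KRT5, KRT7 and KRT20, and GATA3, TP63 and UPK3B had values under 1 in all 4 libraries. The urothelial regulator PPARG was present at 28.2 and 26.0 in normoxia and 10.9 and 10.7 in hypoxia, TBX3 at 57.9 and 55.7 in normoxia and 31.8 and 32.5 in hypoxia, and the adhesion receptor CD44 at 2025 and 2041 in normoxia and 1221 and 1199 in hypoxia, all 3 lower in hypoxia. The epithelial factor KLF5, at 17.0 and 17.2 in normoxia and 24.4 and 20.9 in hypoxia, was higher by a log2 fold change of 0.38, and the receptor FGFR3, at 1.61 and 1.68 in normoxia and 3.18 and 2.72 in hypoxia, had a log2 fold change of 0.58 and did not pass the test given below for all genes. The kidney lineage factor PAX8 had values of 384 and 377 in normoxia and 322 and 331 in hypoxia. The mesenchymal filament vimentin (VIM) was at 3230 and 3304 in normoxia and 5242 and 5476 in hypoxia, while CDH1, the epithelial cadherin, and KRT19 had no row. Few of the defining urothelial transcripts were thus found in these libraries. The leucocyte markers PTPRC and CD3E and the endothelial markers PECAM1, CDH5 and KDR had no row. Other endothelial markers were measured: VWF, the von Willebrand factor, at 1.48 and 1.59 in normoxia and 4.09 and 3.68 in hypoxia (0.95), and the receptor TEK (0.75) were higher, and the transcription factor ERG, at 29.3 and 26.4 in normoxia and 13.9 and 16.6 in hypoxia (-0.83), was lower. Of the myeloid markers, the receptor CSF1R was higher, at 1.97 and 2.10 in normoxia and 4.34 and 4.92 in hypoxia (0.89), and CD14, with a log2 fold change of 0.095, did not pass. Their part in the results was not tested.

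Hypoxia changed genes in both directions, with the larger changes mostly upwards. By limma on log2(value + 1), with at least a 1.3-fold change and a Benjamini-Hochberg adjusted p under 0.05, 5382 of the 14869 genes (36.2%) were called, 2667 higher (17.9%) and 2715 lower (18.3%). With every library centred on its median gene the same call gave 3215 higher and 2107 lower, so the share of higher genes among those called went from 49.6% to 60.4%. Of the calls, 574 were rises of 2-fold or more and 303 falls of that size, and at 4-fold the counts were 76 and 17. The groups did not overlap in any called gene, and they did not overlap in 82.2% of all genes tested. Genes called higher took 13.8% and 14.2% of the library total in normoxia and 24.5% and 24.8% in hypoxia, and genes called lower went from 22.5% and 22.3% to 14.2% in both hypoxic libraries. Among genes with a mean value of 50 to 500, 25.2% were lower and 13.4% higher, while among genes at 1 to 5 only 7.66% were lower and 22.8% higher.

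Genes that were barely detected in normoxia also appeared. Values under 1 in both normoxic libraries and of 5 or more in both hypoxic libraries were found in 10 genes, 9 of them called, and the reverse in 0. They included the nuclear receptor RORA, at 0.0447 and 0.210 in normoxia and 6.41 and 5.97 in hypoxia, and, chosen after their values were seen, the Src-family kinase FYN, at 0.537 and 0.713 in normoxia and 6.5 and 6.74 in hypoxia, the kinesin KIF5C, at 0.492 and 0.545 in normoxia and 6.94 and 6.88 in hypoxia, and the receptor GPR146, at 0.403 and 0.545 in normoxia and 7.47 and 7.26 in hypoxia. SYTL2, a vesicle trafficking protein, met the same limits with 0.671 and 0.923 in normoxia and 5.68 and 5.11 in hypoxia, but the spread of the METTL4-si libraries (2.67 and 127.6) left it uncalled at an adjusted p of 0.30.

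Most known HIF targets rose. Of 35 tested genes of a list of HIF targets outside glycolysis, 31 were called higher and none lower, with a median log2 fold change of 1.73 against -0.02 over all genes tested. CA9, the membrane carbonic anhydrase that acidifies the surroundings of hypoxic tumour cells, had the largest change of all named genes, with values of 0.358 and 1.18 in normoxia and 54.0 and 56.2 in hypoxia (log2 fold change 5.03 ± 0.21 SE, adjusted p = 1.2e-05, limma). The gene lies at chr9:35673925-35681156 (GRCh37, plus strand). Its normoxic values rest on few reads, 1 read being worth 0.0448 in normoxia replicate 1, and both hypoxic libraries lay far above them. VEGFA, the main growth factor for blood vessels, had 70.2 and 83.8 in normoxia and 439.6 and 432 in hypoxia (2.49 ± 0.10 SE). The mitophagy receptors BNIP3, at 97.2 and 98.0 in normoxia and 354 and 346 in hypoxia, and BNIP3L, at 105 and 112 in normoxia and 414 and 391 in hypoxia, rose by similar amounts, 1.83 and 1.89 on the log2 scale. Large rises were also seen in TMEM45A (2.79), the lipoprotein receptor VLDLR (2.37), INSIG2, which holds the sterol sensor in the endoplasmic reticulum, (2.35), the mitochondrial FAM162A (2.34), the stress protein NDRG1 (2.18) and the mTOR inhibitor DDIT4 (1.76). The 4 genes without a call were EFNA1 (0.31), JMJD6 (0.035), HMOX1 (-0.19) and the transferrin receptor TFRC (-0.22).

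Genes of the HIF subunits moved in both directions, and those of the oxygen-sensing enzymes were higher or not called. HIF1A mRNA, which encodes the main alpha subunit, was lower, at 640.3 and 635 in normoxia and 497 and 459 in hypoxia (-0.42 ± 0.09 SE, adjusted p = 0.007, limma), while EPAS1, which encodes the other common alpha subunit, was higher, at 202 and 201 in normoxia and 367 and 364 in hypoxia (0.85 ± 0.07 SE). With the libraries centred on their median gene HIF1A came to -0.34 and was no longer called. It had -0.41 without normoxia replicate 1, -0.42 without normoxia replicate 2 and -0.36 without hypoxia replicate 2, and lost its call each time. In the fit to the 4 Scr-si libraries alone the call was kept. The oxygen-sensing hydroxylases EGLN1 (0.57) and EGLN3 (1.28), both HIF targets, rose, and EGLN2 was not called (0.0046). ARNT2, a minor partner subunit, went from 3.22 and 3.44 to 0.386 and 0.287 and was called lower (-1.70). VHL (-0.24), ARNT (0.35) and the asparagine hydroxylase HIF1AN (0.065) were not called.

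The promoters of 5 of these genes are shown to let the HIF core be compared with the response: 4 that rose by different amounts and SPRY4, among the genes that fell most. Sequences are from RefSeq on GRCh38.p14, 250 bases before to 50 after the start, read 5′ to 3′ along the gene's strand. Capitals mark ACGTG or GCGTG on either strand, so that CACGT and CACGC are the same letters read on the other strand, and where matches overlap the joined run is in capitals.
CA9 (chr9:35673678-35673977, plus strand): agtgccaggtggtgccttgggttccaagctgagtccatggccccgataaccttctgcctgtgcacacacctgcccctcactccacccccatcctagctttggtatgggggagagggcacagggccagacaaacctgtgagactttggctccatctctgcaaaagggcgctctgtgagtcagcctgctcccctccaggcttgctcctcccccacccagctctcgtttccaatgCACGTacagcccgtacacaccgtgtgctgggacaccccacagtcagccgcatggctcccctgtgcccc
BNIP3 (chr10:131981874-131982173, minus strand): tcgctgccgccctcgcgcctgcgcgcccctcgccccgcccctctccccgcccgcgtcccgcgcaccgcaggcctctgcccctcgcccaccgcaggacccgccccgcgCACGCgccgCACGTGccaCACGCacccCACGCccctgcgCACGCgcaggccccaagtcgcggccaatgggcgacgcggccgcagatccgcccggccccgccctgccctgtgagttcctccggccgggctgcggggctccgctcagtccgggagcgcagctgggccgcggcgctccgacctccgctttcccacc
ANKRD37 (chr4:185396591-185396890, plus strand): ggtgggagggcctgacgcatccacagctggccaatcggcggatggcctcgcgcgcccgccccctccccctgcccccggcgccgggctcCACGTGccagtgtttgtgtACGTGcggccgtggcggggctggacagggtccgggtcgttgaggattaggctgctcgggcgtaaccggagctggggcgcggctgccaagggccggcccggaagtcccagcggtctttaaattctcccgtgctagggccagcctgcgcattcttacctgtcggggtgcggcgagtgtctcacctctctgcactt
PPFIA4 (chr1:203026241-203026540, plus strand): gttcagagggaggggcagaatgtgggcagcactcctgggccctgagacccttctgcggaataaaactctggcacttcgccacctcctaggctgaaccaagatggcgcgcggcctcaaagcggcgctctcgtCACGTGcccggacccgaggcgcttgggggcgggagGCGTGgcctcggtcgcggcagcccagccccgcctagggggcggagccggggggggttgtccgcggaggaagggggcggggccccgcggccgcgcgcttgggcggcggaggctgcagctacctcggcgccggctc
SPRY4 (chr5:142324198-142324497, minus strand): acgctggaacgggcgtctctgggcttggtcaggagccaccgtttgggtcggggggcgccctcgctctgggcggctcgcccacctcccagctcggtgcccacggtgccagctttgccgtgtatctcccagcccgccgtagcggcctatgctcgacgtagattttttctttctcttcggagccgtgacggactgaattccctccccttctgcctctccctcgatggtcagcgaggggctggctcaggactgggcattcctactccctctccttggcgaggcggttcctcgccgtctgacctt
The CA9 promoter held 1 match, whose middle base lies 16 bases before the start, and CA9 had the largest rise. BNIP3 held 6 matches, 2 of ACGTG and 4 of GCGTG, with a log2 fold change of 1.83. ANKRD37, an ankyrin repeat protein and HIF target, held 3 matches of ACGTG and rose by 0.84, from values of 2.15 and 2.77 to 5.25 and 5.11. The log2(value + 1) scale understates changes at such low values. PPFIA4, a liprin of the cell cortex and one of the 15 genes with the largest rise, held 2 of ACGTG and 1 of GCGTG. In BNIP3, ANKRD37 and PPFIA4 the run CACGTG reads as ACGTG on each strand, so 2 of the matches counted are 1 place in the DNA. SPRY4 held none.

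Over all genes the core was about as common in promoters of genes that rose as in the others. A promoter was found for 10218 of the genes tested, and one or other core stood in at least 1 promoter of 68% of the genes called higher, 73.1% of those called lower and 70.3% of those not called, against 52.4% of all 27305 genes in the promoter table. For ACGTG alone the shares were 34.3%, 31.8% and 32.6%, and for GCGTG alone 54.9%, 62.2% and 58.4%. The promoters of the 3 groups had median GC contents of 64.8%, 64.7% and 64.8%. Among the 25 genes of the HIF target list with a promoter the share with either core was 88%, and 68% held ACGTG, at a median GC content of 68%, above that of the 3 groups. These are shares of short windows around the start, with no test, and they say nothing of sites farther away.

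Genes of glucose uptake and lactate production rose. Of 21 genes of glucose transport and glycolysis, 14 were higher and 2 lower (median 0.65). The transporter SLC2A1 rose most, at 88.3 and 96.3 in normoxia and 485 and 505 in hypoxia (2.41 ± 0.07 SE, adjusted p = 6.3e-06, limma), followed by the enolase ENO2 (1.82), the hexokinase HK2 (1.66), the liver-type phosphofructokinase PFKL (1.60) and the transporter SLC2A3 (1.54). The abundant enzymes rose less: PGK1 from 766 and 789 to 1784 and 1814 (1.21), LDHA, which makes lactate, from 2205 and 2220 to 3596 and 3657 (0.71), and ENO1 from 2062 and 2099 to 3169 and 3343 (0.65). GAPDH (0.31) and PKM (0.27) were not called. The muscle-type phosphofructokinase PFKM fell by 0.47 on the log2 scale, and PFKFB4, a regulator of phosphofructokinase that is a HIF target in many cells, was lower, at 65.5 and 65.9 in normoxia and 40.7 and 42.1 in hypoxia (-0.65 ± 0.08 SE). Several of these genes have processed pseudogenes whose reads may be counted to either copy.

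Related genes were compared in pairs of a known HIF target and a relative. Some relatives, such as BNIP3L and BHLHE41, are HIF targets too, so the pairs do not set targets against genes that are not. Both members were higher in 8 of the 18 pairs with both tested, and only the target in 9, in 1 of which (LDHA and LDHB) the relative was lower, and in 1 pair only the relative, ALDOA, was higher. Per kilobase of exon, mean values of the brain-type enolase ENO2 went from 18.8 to 66.7 and those of the common ENO1 from 399 to 624, so the induced ENO2 stayed far below ENO1 in both conditions. HK2 went from 16.2 to 51.3 per kilobase and was called, while HK1 went from 74.0 to 78.0 and was not. The pyruvate dehydrogenase kinase PDK1 went from 9.46 to 24.0 per kilobase against 1.11 to 1.44 for PDK2. LDHA rose while LDHB, which favours lactate use, fell by 0.49 on the log2 scale, a call that was lost with the libraries centred on their median gene (adjusted p = 0.056). KDM3A, a histone demethylase, rose by 1.24 and KDM3B had 0.08.

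**Figure D1:**
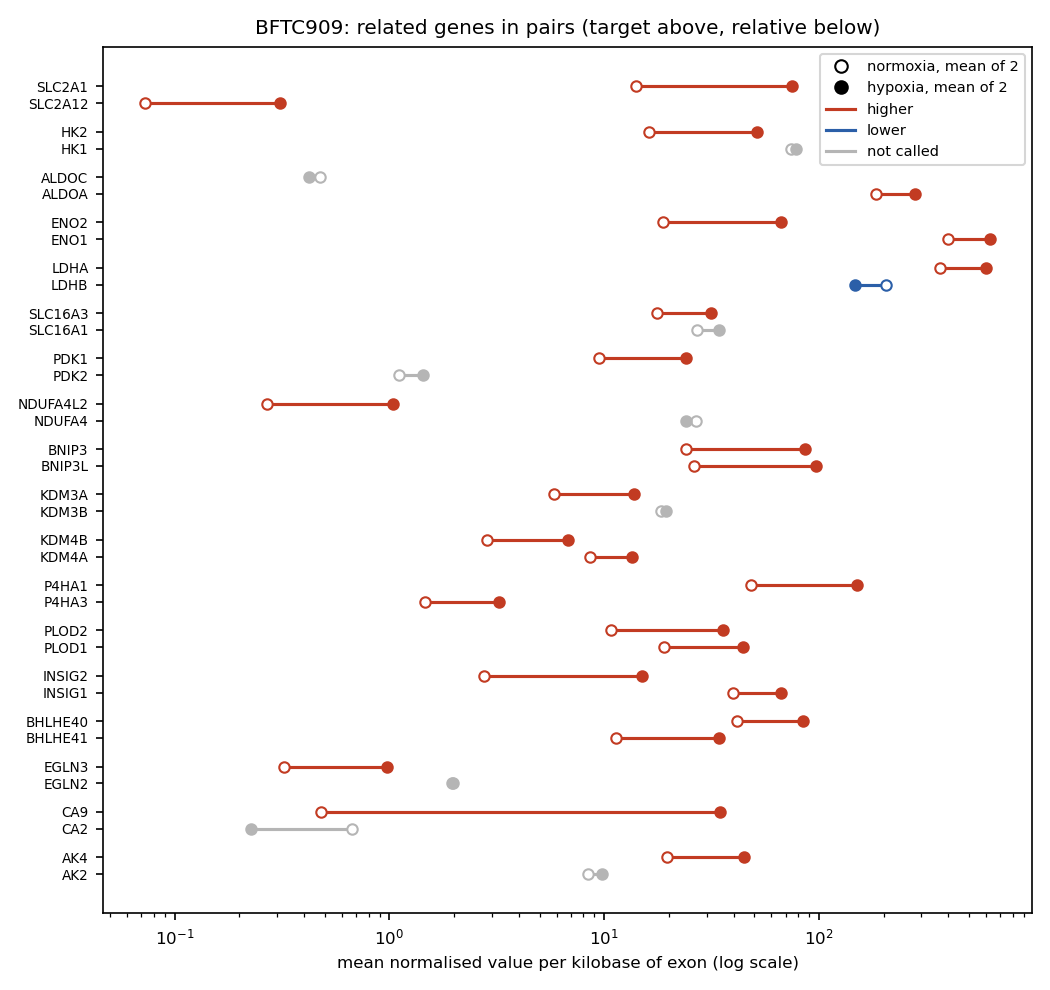
Mean normalised value per kilobase of exon (log scale, horizontal axis) in normoxia (open circles) and hypoxia (filled circles) for the members of 18 pairs of related genes in BFTC909, n = 2 libraries per point. Long lines mark large changes, such as CA9, SLC2A1 and INSIG2, and the common isoforms ENO1 and HK1 sit at higher levels with short lines.

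Of 14 tested genes of pyruvate, lactate and pH control, 5 were higher and 2 lower, the phosphatase PDP2 (-0.69) and LDHB. Those counts are 35.7% and 14.3%, beside 17.9% and 18.3% of all genes tested. The second tumour-associated carbonic anhydrase, CA12, rose from 323 and 333 to 996 and 1017 (1.62 ± 0.06 SE), and the lactate exporter SLC16A3 from 161 and 166 to 273 and 305 (0.81). PDK1 (1.34) and PDK3 (1.45) were higher. Of 11 tested genes of glycogen metabolism, 7 were higher and 1 lower. PPP1R3C, which brings the phosphatase that activates glycogen synthase to glycogen, had 8.32 and 9.10 in normoxia and 72.4 and 74.5 in hypoxia (2.94 ± 0.09 SE, adjusted p = 6.3e-06, limma), and the branching enzyme GBE1 (1.34), the synthase GYS1 (0.95) and PGM1 (0.92) rose with it. The primer protein glycogenin, GYG1, fell by 0.84 on the log2 scale.

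Of 18 tested genes of fatty acid synthesis and lipid droplets, 6 were higher and 3 lower (median 0.20). These are 33.3% and 16.7%, beside 17.9% and 18.3% of all genes tested. The lipid droplet coat gene PLIN2 went from 200.1 and 221 to 1216 and 1227 (2.53 ± 0.10 SE), and HILPDA, an inhibitor of droplet lipolysis, from 9.76 and 10.9 to 45.0 and 49.5 (2.09). The desaturases, whose reaction consumes oxygen, were higher: FADS2 from 72.8 and 80.5 to 388 and 407 (2.36), SCD from 389.9 and 412 to 1502 and 1530 (1.92) and FADS1 from 236 and 246 to 586 and 574 (1.26). The fatty acid synthase FASN (-0.17) and ACLY (-0.30), the droplet coat gene PLIN3 (0.16), the triglyceride-forming enzymes DGAT1 (0.23) and DGAT2 (-0.031) and the lipase PNPLA2 (0.24) were not called. The lipolysis activator ABHD5 (-1.10), the fatty acid carrier FABP5 (-0.97) and the elongase ELOVL6 (-0.57) fell. Of 24 tested genes of cholesterol synthesis and uptake, 4 were higher, or 16.7% beside 17.9% of all genes tested, and none was lower. These 4 were the regulators SREBF1 (1.02), INSIG1 (0.74) and SREBF2 (0.61) and the isomerase EBP (0.47).

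Matrix genes rose, with exceptions. Of 32 mesenchymal and matrix genes, 20 were higher and 7 lower (median 0.69). Among all 24 collagen chains tested, a list drawn up after the values were seen, 16 were higher and 4 lower. COL3A1, a fibrillar collagen, went from 7.65 and 9.27 to 108 and 109 (3.53 ± 0.20 SE, adjusted p = 3.3e-05, limma), and COL5A1, which starts fibrils, from 76.2 and 91.6 to 619 and 661 (2.92 ± 0.10 SE). The chains of the main fibrillar collagen, COL1A2 and COL1A1, were already abundant and rose from 805 and 882 to 3595 and 3755 (2.12) and from 199 and 213 to 726 and 771 (1.86). The gene of fibronectin, FN1, reached 59800 and 60240 from 32330 and 33150 (0.87 ± 0.15 SE, adjusted p = 0.0033, limma), the highest value of any gene named here. Its log2 fold change was 0.86 without normoxia replicate 1 and 0.89 without normoxia replicate 2. The call was lost in both these fits and kept in the fit to the 4 Scr-si libraries alone. COL17A1, a hemidesmosome collagen, fell by 1.62, COL12A1 by 1.42 and COL6A5 by 1.63 on the log2 scale.

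Enzymes that make collagen mature rose together: 11 of 13 tested genes were higher and none lower, with a median of 1.21. They included the crosslinking oxidase LOX, at 187 and 199 in normoxia and 721 and 664 in hypoxia (1.84 ± 0.12 SE), the prolyl hydroxylases P4HA1 (1.64) and P4HA2 (1.76), the lysyl hydroxylases PLOD2 (1.73) and PLOD1 (1.21) and the collagen chaperone SERPINH1 (1.62). PLOD3 (0.12) and COLGALT1 (0.29) were not called. The gelatinase MMP2 rose from 47.5 and 51.0 to 286 and 304 (2.56) and the fibroblast protease FAP from 17.7 and 19.2 to 45.0 and 44.1 (1.23). The insulin-like growth factor binding proteins IGFBP3, at 14.3 and 21.5 in normoxia and 328 and 329 in hypoxia (4.15 ± 0.16 SE), and IGFBP5, at 24.3 and 27.4 in normoxia and 197 and 203 in hypoxia (2.91 ± 0.14 SE), were both among the 15 largest rises.

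Other genes of the cell surroundings fell. TGM2, a crosslinking transglutaminase, dropped from 900.4 and 889.9 to 141 and 153 (-2.60 ± 0.07 SE, adjusted p = 3.7e-06, limma), and the plasminogen activator PLAU from 572 and 562 to 195 and 212 (-1.47). THBS1, a thrombospondin that inhibits vessel growth, went from 284 and 283 to 33.8 and 32.7 (-3.05 ± 0.62 SE). The METTL4-si libraries, which share the estimate of the spread, had 7.83 and 44, while the replicates of the compared groups were close. The YAP target genes CCN2 (-1.26) and CCN1 (-0.65) and the tenascin TNC (-0.47) were lower as well.

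Of 8 tested fibroblast markers, 7 were higher, and the summed value of the 9 in the table went from 1270 and 1372 in normoxia to 4747 and 4957 in hypoxia, most of it COL1A2. COL1A1, COL1A2, COL3A1, FAP and POSTN also stand in the list of mesenchymal and matrix genes, so the counts of these lists share them. Of the other tested markers, LUM (2.04) and PDGFRB (0.38) were higher and THY1 (0.12) was not called. DCN, PDGFRA and DPT, which define fibroblasts, had no row, LUM was at 0.940 and 1.09 in normoxia and 8.19 and 6.5 in hypoxia and POSTN at 0.537 and 0.461 in normoxia and 1.3 and 1.34 in hypoxia. Whether other cells take part in the rise of the collagen genes was not tested.

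Genes of the epithelial-mesenchymal transition (EMT) moved in both directions. SNAI1, a repressor of epithelial genes, was higher, at 4.74 and 6.71 in normoxia and 16.0 and 17.6 in hypoxia (1.42 ± 0.17 SE, adjusted p = 6.2e-04, limma), and so were ZEB2, at 41.4 and 40.4 in normoxia and 71.7 and 69.2 in hypoxia (0.77 ± 0.10 SE), and VIM (0.71). SNAI2 was lower, at 129 and 118 in normoxia and 81.5 and 75.7 in hypoxia (-0.65 ± 0.08 SE), and TWIST1 (0.16), ZEB1 (-0.30), TCF3 (-0.34) and the mesenchymal cadherin CDH2 (-0.014) were not called. Of 10 tested epithelial junction and keratin genes, 1 was higher, the desmosomal cadherin DSG2 (0.38). Another 1 was lower, the tight junction claudin CLDN1, from 118 and 118 to 29.7 and 30.1 (-1.94 ± 0.09 SE). Each is 10%, beside 17.9% higher and 18.3% lower of all genes tested. KRT18 (values of 76.3 and 73.4 in normoxia and 17.1 and 16.7 in hypoxia), DSP (36.9 and 36.4 in normoxia and 8.19 and 8.46 in hypoxia) and KRT8 (7.21 and 7.55 in normoxia and 2.60 and 3.25 in hypoxia) did not overlap between the groups, but their log2 fold changes of -2.08, -2.01 and -1.10 had adjusted p-values of 0.14, 0.057 and 0.65 by limma, since METTL4-si replicate 2 held 379 of KRT18, 97.5 of DSP and 715 of KRT8. In the fit to the 4 Scr-si libraries alone the adjusted p-values were 2.7e-12, 4.6e-11 and 3.6e-06, and 4 of the 10 genes were called lower and 3 higher.

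Of the genes that the study followed up, METTL4 and ZMIZ1 were not called. METTL4 had 20.8 and 18.9 in normoxia and 19 and 15.6 in hypoxia (-0.19 ± 0.13 SE, adjusted p = 0.27, limma), and ZMIZ1, a transcriptional co-activator, had 145 and 146 in normoxia and 181 and 181 in hypoxia (0.31 ± 0.10 SE, adjusted p = 0.032), which is under the 1.3-fold limit. With the libraries centred on their median gene ZMIZ1 came to 0.39 and was called. Of 14 enzymes that write or erase adenine methylation, 1 was higher, the RNA demethylase ALKBH5 (0.45), and 3 were lower, METTL16 (-0.66), ALKBH4 (-0.47) and ALKBH1 (-0.41). The lower ones are 21.4%, beside 18.3% of all genes tested. The lncRNA RP11-390F4.3 was not analysed here, because no annotation used pairs that name with an identifier.

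**Figure D2:**
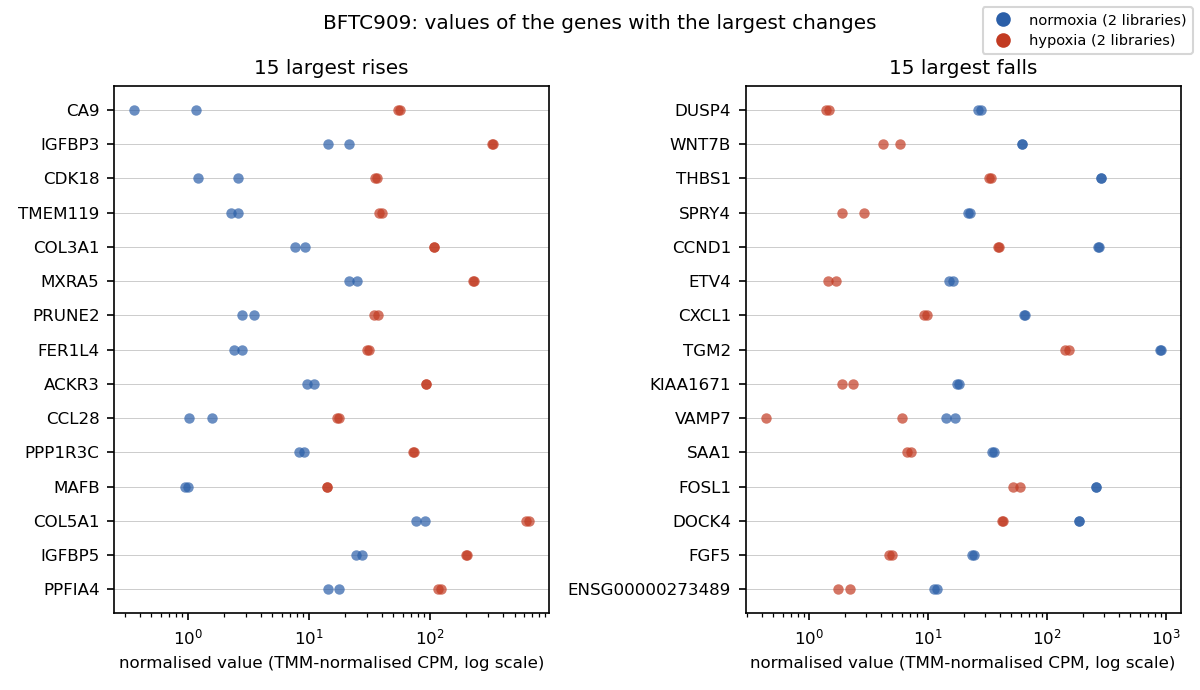
Normalised values (log scale, horizontal axis) of the 15 genes with the largest rise and the 15 with the largest fall in BFTC909, 1 point per library, blue for the 2 normoxic and red for the 2 hypoxic libraries. The groups stand apart in every gene, and the 2 points of a group lie close together in most, with VAMP7, whose hypoxic libraries read 6.02 and 0.43, spread most.

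Of the 15 genes with the largest fall, 5 are readouts of growth factor signalling through ERK: DUSP4, SPRY4, CCND1, ETV4 and FOSL1. DUSP4, a phosphatase that shuts off ERK (chr8:29190581-29208201, GRCh37, minus strand), went from 27.8 and 26.1 to 1.40 and 1.48 (-3.52 ± 0.26 SE, adjusted p = 9.4e-05, limma), SPRY4, a feedback inhibitor of receptor tyrosine kinases, from 21.7 and 22.4 to 1.88 and 2.91 (-2.78 ± 0.16 SE), and the transcription factor ETV4 from 15 and 16.2 to 1.69 and 1.43 (-2.70 ± 0.16 SE). Cyclin D1 (CCND1) fell from 270.2 and 265 to 38.5 and 39.1 (-2.75 ± 0.43 SE) and the AP-1 subunit FOSL1 from 256 and 256 to 51.6 and 59.2 (-2.19 ± 0.08 SE). In a list of 25 tested output and feedback genes of this pathway, drawn up after these values were seen, 19 were lower and 1 was higher, SPRY1 (1.07), with a median of -0.99. DUSP5 (-1.81), ETV5 (-1.80), the ligand HBEGF (-1.70), HMGA1 (-1.68) and MYC, from 121 and 122 to 66.7 and 62.6 (-0.90), were among the lower ones, and EGR1, an immediate early gene, had 0.085. WNT7B, FGF5 and FGF2, which encode growth factor ligands, were lower: WNT7B from 61.0 and 60.9 to 4.14 and 5.78 (-3.39 ± 0.26 SE), FGF5 from 24.2 and 23.4 to 4.96 and 4.73 (-2.09 ± 0.16 SE) and FGF2 from 43.4 and 40.4 to 21.0 and 19.1 (-1.03).

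Inflammatory mediators moved in both directions. The neutrophil chemokine CXCL1 fell from 63.7 and 64.6 to 9.20 and 9.75 (-2.64 ± 0.17 SE), CXCL2 from 11.6 and 10.7 to 2.46 and 1.77 (-1.97), the cytokines IL11 (-1.60) and IL6 (-1.12) fell, and the acute phase gene SAA1 went from 36.1 and 34.7 to 6.70 and 7.12 (-2.20 ± 0.11 SE). The adhesion molecule ICAM1 rose from 13.7 and 14.4 to 42.9 and 41.4 (1.52), the NF-kB inhibitor TNFAIP3 rose by 0.73, and the chemokines' scavenger ACKR3, at 9.62 and 10.9 in normoxia and 93.6 and 92.9 in hypoxia (3.06 ± 0.10 SE), and the mucosal chemokine CCL28, at 1.03 and 1.59 in normoxia and 17.6 and 17.1 in hypoxia (3.0 ± 0.15 SE), were among the 15 largest rises. Of 17 tested genes of the inflammatory list, 3 were higher, or 17.6% beside 17.9% of all genes tested. Lower were 6, or 35.3% beside 18.3%.

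Genes that make ribosomes fell. In ribosome biogenesis 31 of 33 genes were lower, none was higher and the median was -0.89. The nucleolar regulator LYAR went from 43.5 and 39.8 to 14.4 and 13.1 (-1.53 ± 0.10 SE, adjusted p = 4.6e-05, limma), the assembly factor NOP16 from 54.3 and 56.7 to 21.0 and 22.4 (-1.32), the RNA polymerase I subunit POLR1B from 76.1 and 77.3 to 32.4 and 34.6 (-1.17) and the helicase DDX21 from 638 and 624 to 305 and 299 (-1.06). The 2 without a call were the rRNA methyltransferase FBL (-0.23) and the rDNA factor UBTF (-0.073). Of 74 mitochondrial ribosomal protein genes, 48 were lower and none higher (median -0.50), with MRPS2 (-1.08), MRPS12 (-0.95) and MRPL12 (-0.90) lowest. Cytosolic ribosomal protein genes moved less: 16 of 80 were lower, or 20% beside 18.3% of all genes tested (median -0.30), none by more than RPS26 (-0.66). With the libraries centred on their median gene these 16 became 8, and many ribosomal protein genes share reads with pseudogenes.

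Genes of protein folding and turnover in the cytosol fell as well. In lists drawn up after the values were seen, 28 of 34 cytosolic and mitochondrial chaperone genes and 26 of 36 proteasome subunit genes were lower and none was higher (medians -0.70 and -0.49). The constitutive chaperone HSPA8 went from 2099 and 2093 to 1010 and 1024 (-1.04 ± 0.06 SE, adjusted p = 4.1e-05, limma), HSP90AA1 from 3354 and 3309 to 1880 and 1940 (-0.80), the mitochondrial HSPD1 from 1169 and 1168 to 594 and 615 (-0.95) and the actin- and tubulin-folding subunit CCT6A from 641 and 628 to 346 and 345 (-0.87). HSPB1 (0.021) and the mitochondrial HSPA9 (-0.25) were not called. Of the proteasome, PSMD11 (-0.92), PSMA3 (-0.83) and PSMD3 (-0.79) fell most, and the immunoproteasome subunits PSMB8 (0.34), PSMB9 (0.22) and PSMB10 (0.52) were not called.

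DNA replication genes fell and mitosis genes moved less. Of 46 genes of replication and nucleotide synthesis, 25 were lower and none higher (median -0.43), among them the origin factor MCM10, from 89.2 and 87.7 to 39.5 and 43.5 (-1.07 ± 0.07 SE), the cyclin CCNE1 (-0.84), the clamp loader RFC3 (-0.82), the licensing factor CDC6 (-0.79) and the ribonucleotide reductase subunit RRM2 (-0.73). Of 35 mitosis and spindle genes, 8 were lower, or 22.9% beside 18.3% of all genes tested, and 1 higher, the kinetochore gene CENPF (0.41). The proliferation marker MKI67 had 1733 and 1693 in normoxia and 1559 and 1543 in hypoxia (-0.14, not called). Replication-dependent histone genes, which carry near-identical copies, were lower in 15 of 30 cases and higher in none. That count was 8 with the libraries centred on their median gene.

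**Figure D3:**
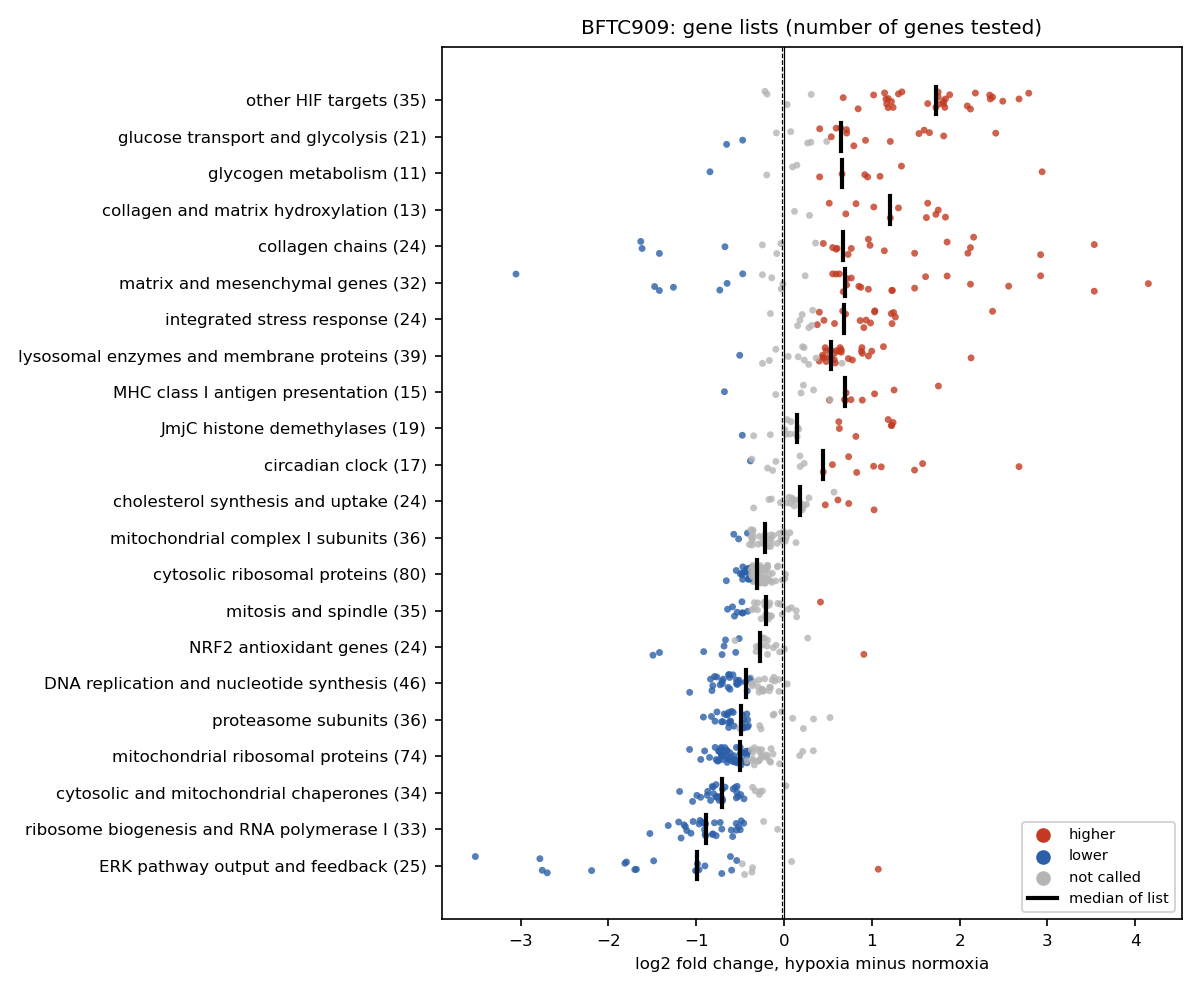
Log2 fold changes (hypoxia minus normoxia, horizontal axis) of the tested genes of 22 gene lists in BFTC909, 1 dot per gene, red for called higher, blue for called lower and grey for not called, with a black bar at each list's median and a dashed line at the median of all genes tested. HIF targets and collagen-modifying enzymes lie to the right and ribosome biogenesis, chaperones and ERK output to the left.

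Genes of complex I of the respiratory chain were mostly not called. The list of 36 tested genes named as its subunits includes NDUFA4, which is now placed in complex IV. Of these 36, 3 were lower, NDUFS3 (-0.57), NDUFB9 (-0.52) and NDUFA5 (-0.42), and none higher, beside 18.3% of all genes tested that were lower. Of 40 nuclear genes of complexes II to V, with the carrier CYCS counted among them, 14 were lower, or 35% beside the same 18.3%. UQCR11 (-0.86) and ATP5MC1 (-0.79) led them, and with the libraries centred on their median gene 9 were lower. In the tricarboxylic acid cycle 7 of 18 genes were lower (38.9%, beside 18.3%) and 1 higher (5.56%, beside 17.9% of all genes tested). The NAD-dependent isocitrate dehydrogenase subunit IDH3A went from 139.6 and 139.8 to 60.4 and 58.6 (-1.22 ± 0.07 SE), and the NADP-dependent IDH2 from 27.2 and 29.5 to 51.5 and 49.7 (0.81 ± 0.12 SE). NDUFA4L2, a HIF target that replaces the respiratory chain subunit NDUFA4, rose from 0.582 and 0.923 to 2.70 and 3.10 (1.16) but stayed far below NDUFA4 per kilobase of exon, at 0.268 to 1.04 against 26.7 to 24.0. Of 13 mitochondrially encoded mRNAs, 11 were not called, MT-CYB was higher (0.51) and MT-ND6, the only one on the other strand, was lower, at 387 and 362 in normoxia and 189 and 159 in hypoxia (-1.10 ± 0.12 SE). The counting is not stated to use strand, so reads of MT-ND6 cannot be told apart from antisense ones.

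Genes of the integrated stress response rose. Of 24 genes, 17 were higher and none lower (median 0.68), and without VLDLR and DDR2, which answer to other signals as well, 15 of 22 were. The asparagine synthetase ASNS went from 84.2 and 86.7 to 206 and 209 (1.27 ± 0.11 SE, adjusted p = 2.0e-04, limma), the amino acid transporter SLC7A5 from 375 and 382 to 882 and 919 (1.25), the serine synthesis enzyme PHGDH from 82.4 and 78.7 to 188 and 193 (1.23) and the cystine transporter SLC7A11 from 133 and 137 to 276 and 235 (0.91). The master factor ATF4 rose by only 0.40 and DDIT3, its proapoptotic target, by 0.87. Aminoacyl-tRNA synthetases divided, 8 higher (40%) and 6 lower (30%) of 20, beside 17.9% and 18.3% of all genes tested. AARS1 (0.91), CARS1 (0.76), GARS1 (0.65), SARS1 (0.59) and WARS1 (0.55) were higher, and FARSA (-0.90), FARSB (-0.74), KARS1 (-0.64), VARS1 (-0.63) and HARS1 (-0.63) were lower. In the endoplasmic reticulum, 7 of 22 folding genes (31.8%) were higher and 1 (4.55%), SDF2L1 (-0.78), lower, beside the same shares of all genes. The oxidase ERO1A (1.17) was highest, and the chaperone HSPA5 had 0.09.

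Lysosomal genes rose, in a list of 39 tested genes drawn up after the values were seen: 27 were higher and 1, GLA, was lower (median 0.53). Prosaposin (PSAP) went from 293 and 304 to 635 and 676 (1.13 ± 0.07 SE), the cathepsins CTSB from 231 and 235 to 458 and 477 (1.00) and CTSD from 319.9 and 330.3 to 529.5 and 588 (0.78), and the membrane glycoprotein GPNMB from 7.88 and 8.98 to 40.4 and 39.9 (2.13). TFEB, a regulator of lysosomal genes, rose by 0.60. Among 20 tested genes of mitophagy and autophagy 7 were higher (35%) and 1, BECN1 (-0.40), lower (5%), beside 17.9% and 18.3% of all genes tested. ATG9A (1.10), ULK1 (0.92) and WIPI1 (0.82) came after BNIP3 and BNIP3L, and the autophagosome gene MAP1LC3B had -0.032.

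Antigen presentation genes rose, and part of the antioxidant genes fell. Of 15 genes of MHC class I presentation, 9 were higher and 1 lower. HLA-B went from 28.0 and 29.5 to 95.6 and 104 (1.76 ± 0.07 SE), HLA-C from 59.7 and 62.0 to 121 and 130.1 (1.03) and the shared light chain B2M from 428 and 423 to 695 and 678 (0.69), and the peptide transporter TAP2 fell by 0.68 on the log2 scale. Reads of the HLA genes can be shared between these near-identical genes, which makes their individual values uncertain. Of 24 NRF2 antioxidant genes, 8 were lower and 1, SLC7A11, higher: the aldo-keto reductase AKR1C1 went from 116 and 117 to 39.4 and 42.2 (-1.49), OSGIN1 from 22.6 and 22.3 to 7.18 and 8.41 (-1.42), the glutathione synthesis subunit GCLM from 187 and 174 to 102 and 88.5 (-0.92) and the thioredoxin reductase TXNRD1 from 1078 and 1060 to 653 and 656 (-0.71). NQO1 (-0.24) and the ferritin chain FTH1 (0.27) were not called.

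Long noncoding RNAs leaned upwards. Of 1570 tested lncRNA genes, 411 (26.2%) were higher and 101 (6.43%) lower, against 17.2% and 21% of 11703 protein-coding genes, with medians of 0.22 and -0.07. Genes at low levels also leaned upwards, as given above for the level of 1 to 5, and their part in this difference was not tested. In a list of hypoxia-linked lncRNAs, 2 of 18 tested were higher (11.1%), 3 lower (16.7%) and 13 not called, with a median of -0.14. MIR210HG, the host transcript of the hypoxia-induced microRNA miR-210, went from 4.16 and 5.29 to 21.4 and 22.1 (2.0 ± 0.12 SE, adjusted p = 4.1e-05, limma). The mature strand it carries is shown with its seed, bases 2 to 8, in capitals, from RefSeq on GRCh38.p14 (chr11:568112-568133, minus strand), though mature microRNAs are too short for these libraries.
hsa-miR-210-3p: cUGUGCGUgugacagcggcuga
UCA1, an lncRNA named for urothelial carcinoma, fell from 127 and 125 to 30.3 and 29.4 (-2.04 ± 0.09 SE, adjusted p = 1.2e-05, limma). The abundant nuclear lncRNAs MALAT1 (0.016) and NEAT1 (0.18) were not called.

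Transcripts named for a neighbouring gene made up part of these rises. Of 151 pairs of a divergent transcript and its neighbour with both tested, the divergent transcript was higher in 56 and lower in 3, and the neighbour was higher in 12 of the 56, lower in 8 and not called in 36. Of 278 antisense transcripts, 81 were higher and 12 lower, and 28 of the 81 had a neighbour that was also higher. Beside these counts, 26.2% of all tested lncRNA genes were higher and 6.43% lower, and of all genes tested 17.9% were higher and 18.3% lower. Some transcripts called higher had means under 1 in normoxia, such as GAPDH-DT (0.417 to 2.06) and NR2F2-AS1 (0.217 to 1.06). Some called lower had means under 1 in hypoxia, such as MSRB3-AS1 (1.79 to 0.431). The filter, a value of 1 or more in 2 of 6 libraries, could be passed through hypoxic libraries alone, and its part in these counts was not tested. Whether neighbours change together more often than other genes was not tested. SLC2A1-DT went from 0.403 and 0.629 to 6.02 and 5.88 beside SLC2A1 (2.41), and VLDLR-AS1 from 2.82 and 3.82 to 15.2 and 13.6 beside VLDLR (2.37). TRMT61A-DT rose from 1.21 and 1.59 to 5.01 and 4.59 while TRMT61A fell by 0.87 on the log2 scale. ZMIZ1-AS1 rose from 4.83 and 4.66 to 13.4 and 11.9 (1.25 ± 0.11 SE) beside the uncalled ZMIZ1. The kit marks strand, but the counting is not stated to use it, so reads of these transcripts and of their neighbours cannot be told apart where they overlap.

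FADU, the head and neck cancer line of the same study, was treated alike (Scr-si, the same oxygen levels and time, 2 libraries per group) and is set beside BFTC909. Its table was normalised separately, and the difference between the lines was not tested. FADU normoxia replicate 1 stood apart for COL3A1, with 20.3 against 0.0447 in replicate 2 and 0 in both hypoxic libraries, so no fold change is given for it. Of 13595 genes tested in both, 16.5% were called higher and 18.9% lower in BFTC909, against 9.25% and 9.98% in FADU. Of these, 588 were higher in both lines, 26.1% of those higher in BFTC909 and 46.7% of those higher in FADU, and 548 were lower in both, 21.4% and 40.4%. Opposite calls were fewer: 97 genes were higher in BFTC909 and lower in FADU, and 83 the reverse. CA9 had 5.03 in BFTC909 and 3.36 in FADU, SLC2A1 2.41 and 1.89, P4HA1 1.64 and 2.05, and PPFIA4 2.83 and 3.57. The list of HIF targets had medians of 1.73 and 1.60, and ribosome biogenesis -0.89 and -0.41. The integrated stress response list had 0.68 in BFTC909 and -0.26 in FADU. VEGFA was 2.49 in BFTC909 and -0.41 in FADU, UCA1 -2.04 and 1.84, PFKFB4 -0.65 and 2.70, and SNAI1 1.42 and -0.59.

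**Figure D4:**
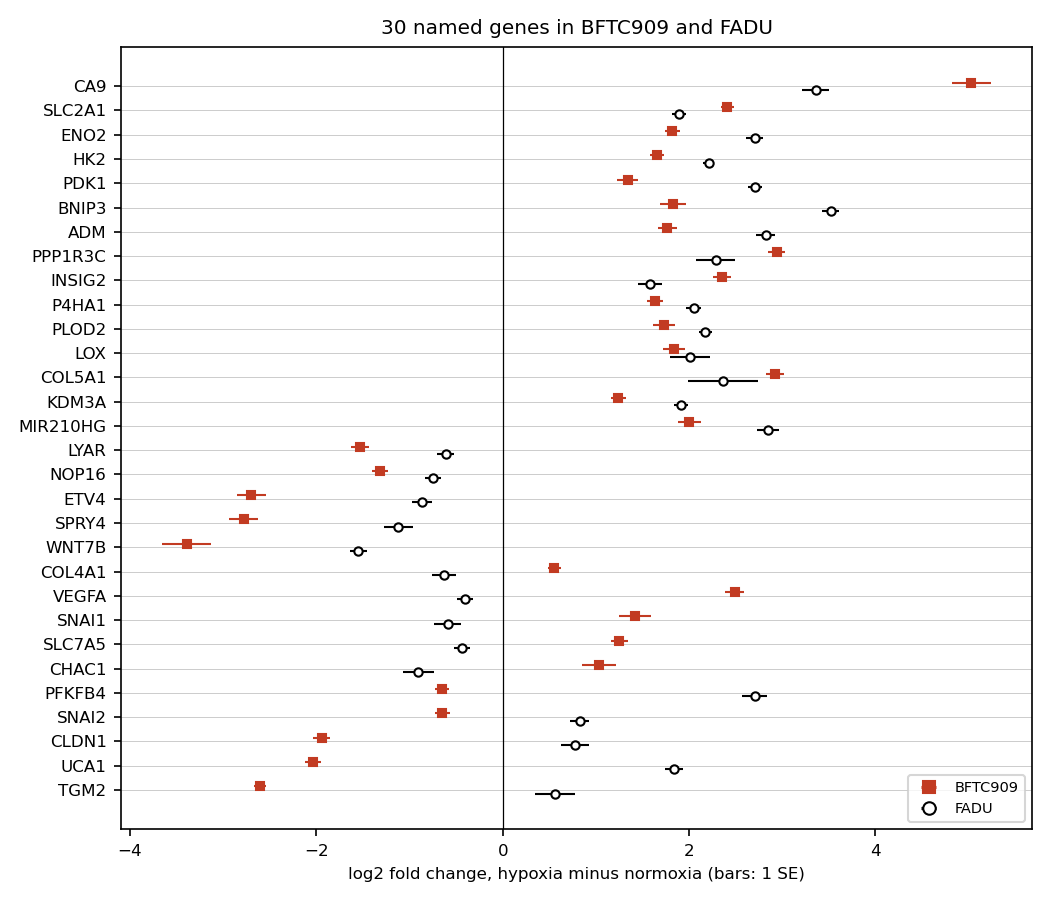
Log2 fold changes (hypoxia minus normoxia, horizontal axis) of 30 named genes in BFTC909 (filled squares) and FADU (open circles), each from its own fit with n = 2 libraries per group and bars of 1 SE. SLC2A1, ENO2, HK2, P4HA1, PLOD2 and LOX lie right of 0 in both lines, and VEGFA, UCA1, PFKFB4, SNAI1, SNAI2, CLDN1 and SLC7A5 lie on opposite sides.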

How the data were processed

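RNA-seq libraries (ribosomal RNA depleted, strand-marking kit, paired reads) were made from BFTC909 cells. According to the labels and the study's methods the authors used Trim Galore for trimming, HISAT2 for alignment (hg19), HTSeq for counts per gene and edgeR for normalisation. Versions and annotation are not given in the sources used here. The authors deposited a signal per gene, TMM-normalised CPM. The growth conditions in the labels name FADU for all samples, so those of BFTC909 are not given separately. Steps in the values gave whole reads for 100% of values within 0.01 reads. Tables of the authors' own comparisons (fold changes and p-values) were not used.

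Values were tested as log2(value + 1) with limma 3.58.1 (R 4.3.3), with a trend and all 6 BFTC909 libraries sharing the spread. A gene was called at 1.3-fold or more and a Benjamini-Hochberg adjusted p under 0.05 over 14869 genes. Fold changes on this scale understate those of low genes. Alternatives included edgeR 4.0.16 and DESeq2 1.42.0. Gene coordinates and exon lengths are from GENCODE on GRCh37, and 14483 of the genes tested were found there. Promoters and the microRNA are from RefSeq on GRCh38.p14.

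Named genes were the 15 with the largest change in each direction (called, mean of 5 or more, no overlap), members of 44 lists and of pairs of related genes, and genes the study follows. The members and lists were chosen with earlier results of these data known. A further 6 lists, and 9 genes outside every list (FYN, GPR146, KIF5C, SLC2A1-DT, SYTL2, TRMT61A, TRMT61A-DT, VLDLR-AS1 and ZMIZ1-AS1), were chosen after values were seen. Some genes of these lists are not reported here.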

Additional observations from a re-analysis of the deposited data

Results flagged for a closer look

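The genes below moved one way in BFTC909 and the other way in FADU: every hypoxic library lay on one side of both normoxic ones in BFTC909, where the gene was called, and on the opposite side in FADU. The difference between the lines was not tested, and the 2 tables were normalised separately. Values are log2 fold changes, hypoxia minus normoxia, and 33 of the named genes met this description.

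Among those also past an adjusted p of 0.05 in FADU (limma), VEGFA had values of 237 and 248 in FADU normoxia and 176 and 189 in FADU hypoxia (-0.405), against 2.49 in BFTC909. UCA1 had values of 26.8 and 27.6 in FADU normoxia and 98.3 and 101 in FADU hypoxia (1.84), against -2.04 in BFTC909. PFKFB4 had values of 7.65 and 9.69 in FADU normoxia and 59.8 and 63.5 in FADU hypoxia (2.7), against -0.654 in BFTC909. Others higher in BFTC909 and past that threshold the other way in FADU were ATF4 (-0.309 in FADU), ATG9A (-0.347 in FADU), CTSD (-1.02 in FADU), MT-CYB (-0.684 in FADU), SLC7A11 (-0.524 in FADU), SLC7A5 (-0.438 in FADU), SNAI1 (-0.589 in FADU), VWF (-0.499 in FADU). Others lower in BFTC909 and past it the other way in FADU were CLDN1 (0.779 in FADU), COL17A1 (0.623 in FADU), ERG (1.25 in FADU), FABP5 (0.939 in FADU), MT2A (0.677 in FADU), PMAIP1 (0.591 in FADU), SNAI2 (0.826 in FADU).

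The rest did not pass an adjusted p of 0.05 in FADU. Higher in BFTC909 were CENPF (-0.32 in FADU), EBP (-0.143 in FADU), FER1L4 (-0.192 in FADU), GARS1 (-0.163 in FADU), PER1 (-0.338 in FADU), PHGDH (-0.187 in FADU), SERPINH1 (-0.178 in FADU), SREBF1 (-0.254 in FADU), WARS1 (-0.115 in FADU), and lower in BFTC909 were AKR1C1 (0.321 in FADU), BECN1 (0.0428 in FADU), CD44 (0.184 in FADU), COL12A1 (0.312 in FADU), NDUFA5 (0.12 in FADU), TGM2 (0.562 in FADU).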

How the results depend on the processing

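The counts of 2667 higher and 2715 lower genes moved with the limits set and with single libraries. A pseudocount of 5 gave 1680 higher and 2185 lower, a mean value of 5 or more gave 1762 and 2427 of 10703 genes, and a 2-fold limit gave 574 and 303. Leaving out 1 library gave 1659 to 3052 higher and 1788 to 2963 lower. The lowest came without normoxia replicate 1 (1659 and 1788), and the higher count was 1765 without normoxia replicate 2 and 1743 without hypoxia replicate 2. On whole reads, recovered from the steps of the values, edgeR's quasi-likelihood test gave 2785 and 2712, and DESeq2 2330 and 2414. The study's unadjusted p gave 2894 and 2854. Centring the libraries on their median gene moved the median of all genes from -0.02 to 0.05 and gave 3215 and 2107. The other alternatives (a pseudocount of 0.1, no filter, the filter on the 4 Scr-si libraries, these 4 alone, and no trend) stayed within 1.5 times of both counts.

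The correlations of replicate 1 minus replicate 2 were 0.019 between normoxia and hypoxia, 0.001 between normoxia and METTL4-si and 0.154 between hypoxia and METTL4-si. Such values cannot tell whether libraries of equal number were handled together, and the main fit did not pair them. With the number as a replicate block the counts were 2692 and 2760.

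No named gene changed direction. Calls lost with the libraries centred were ALKBH1, BECN1, HIF1A, LDHB and NDUFA5, and those gained ARNT, PSMB10, PSMB8 and ZMIZ1. Single compared libraries cost 16 to 19 calls. ALKBH1, ALKBH4, ARNT2, CENPF, DSG2, EGLN1, KDM6B, LDHB, MT-CYB, NDUFA5 and ULK1 were lost without any of the 4, and VAMP7 and FN1 without either normoxia library. KLF5 and SDF2L1 were lost without any but hypoxia replicate 2, HIF1A without any but hypoxia replicate 1, and PER1 without any but normoxia replicate 1. TRMT61A was lost without normoxia replicate 1 or either hypoxia library, TEK without normoxia replicate 1 or hypoxia replicate 1, MDM2 without normoxia replicate 1 or hypoxia replicate 2, POSTN without normoxia replicate 2, and ALKBH5, CTSD and FGF2 without hypoxia replicate 2. VAMP7, ALKBH1, ALKBH4, TEK and ULK1 were not called by DESeq2. The cause was not tested. With 2 libraries per group, differences near the 1.3-fold limit and values near 1 are the least certain.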

Other observations

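Clock genes moved as well. Of 17 tested genes of the circadian clock, 9 were higher and 1 lower, with a median log2 fold change of 0.45. The nuclear receptor RORA (2.68) and the repressors BHLHE41, at 43.7 and 43.2 in normoxia and 133 and 130.0 in hypoxia (1.58), CIART (1.49), NFIL3 (1.11) and BHLHE40 (1.02) had the largest rises, and PER1 rose by 0.83. CLOCK (-0.37), PER2 (-0.093) and NR1D1 (-0.13) were not called. BHLHE40 and BHLHE41 are known HIF targets. Histone demethylases of the JmjC family, enzymes that need oxygen, were higher in 7 of 19 cases and lower in 1. These were KDM3A (1.24), KDM5B, at 36.5 and 37.5 in normoxia and 88.3 and 87.4 in hypoxia (1.23), KDM4B (1.22), KDM4C (1.19), KDM6B (0.82), KDM4A (0.63) and KDM7A (0.62).

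Cell cycle inhibitors and p53 targets divided, with 5 higher and 5 lower of 16, 31.2% each, beside 17.9% and 18.3% of all genes tested. The inhibitor CDKN1C, at 6.62 and 6.46 in normoxia and 20.8 and 19.9 in hypoxia (1.5), and TP53INP1 (1.49) were higher, and the proapoptotic PMAIP1 (-1.07) and the p53 antagonist MDM2 (-0.47) lower. Of 34 interferon-stimulated genes, 8 were higher, or 23.5% beside 17.9% of all genes tested, led by XAF1 (1.45) and SAMD9L (1.31). Lower were 3, or 8.82% beside 18.3%, while the much used markers ISG15 (-0.18) and MX1 (-0.089) were not called. Of 13 angiogenic ligands and receptors, 5 were higher (38.5%), with adrenomedullin (ADM, 1.77) after VEGFA, and 2 were lower (15.4%). Of 4 metallothionein genes tested, MT2A was lower (-1.04) and the others were not called.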
